A study of Mus musculus with 6 samples.

Results

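The Endothelin-Dlx-Hand genes of jaw patterning were followed in RNA-Seq data from microdissected craniofacial tissue of E12.5 mouse embryos. They comprised 10 genes, chosen by name from the 38553 entries of the gene table, namely *Dlx1*, *Dlx2*, *Dlx3*, *Dlx4*, *Dlx5*, *Dlx6*, *Hand1*, *Hand2*, *Edn1* and *Ednra*, and all 10 were found. Per the labels, the 3 control samples were *Rbfox2* flox/flox, with no Cre named, although the study's methods also count embryos with a single floxed allele, with or without Cre, as controls. The 3 *Rbfox2* mutant samples carried the same floxed alleles and *Pax3*Cre/+, a Cre knock-in at the *Pax3* locus. This Cre is active in the neural crest and in the paraxial mesoderm, and the paper also shows Pax3 in the dorsal neural tube. Cells without Cre activity kept *Rbfox2*. By these labels, only the mutants carried the *Pax3* knock-in. The question was whether the expression of these patterning genes differed between control and *Rbfox2* mutant tissue.

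In the pharyngeal arches, endothelin 1, encoded by *Edn1*, is a secreted peptide made by the epithelium and the mesodermal core, and it acts on neural crest cells through the endothelin A receptor, encoded by *Ednra*. The signal sustains *Dlx5* and *Dlx6*, homeobox genes of the lower jaw, and through them *Hand2*, a basic helix-loop-helix (bHLH) factor of the most ventral mesenchyme. *Dlx1* and *Dlx2* are expressed in upper and lower jaw, and the nested pattern of the *Dlx* genes gives the jaw elements their dorsal and ventral identity. *Dlx1*, *Dlx2*, *Dlx5* and *Dlx6* are also expressed in the ventral forebrain, and *Hand1* and *Hand2* in the heart.

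The 6 *Dlx* genes lie as 3 convergent pairs. In GRCm38, *Dlx1* (ENSMUSG00000041911, chr2:71528113-71533981, plus strand) and *Dlx2* (ENSMUSG00000023391, chr2:71543408-71546754, minus strand) are 9426 bases apart. *Dlx6* (ENSMUSG00000029754, chr6:6863334-6868568, plus strand) and *Dlx5* (ENSMUSG00000029755, chr6:6877805-6882085, minus strand) are 9236 bases apart. *Dlx3* (ENSMUSG00000001510, chr11:95120119-95125296, plus strand) and *Dlx4* (ENSMUSG00000020871, chr11:95140447-95146263, minus strand) are 15150 bases apart. *Hand1* (ENSMUSG00000037335) is at chr11:57828705-57832818 on the minus strand, *Hand2* (ENSMUSG00000038193) at chr8:57320983-57324633 on the plus strand, *Edn1* (ENSMUSG00000021367) at chr13:42301476-42307990 on the plus strand and *Ednra* (ENSMUSG00000031616) at chr8:77663031-77724464 on the minus strand.

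The bases directly upstream of the RefSeq start (GRCm38.p6) are shown for *Hand2* and *Ednra*, whose values differed between the replicate numbers as described below, and for *Dlx2*, whose level set the first replicates apart from the others. Each window holds 250 bases, read 5′ to 3′ on the strand of the gene. Capitals mark CANNTG, the E-box read by bHLH factors, and TAATTA, a core that homeodomain proteins bind. Both motifs read the same on either strand, and no match overlapped another.
*Hand2*, chr8:57320733-57320982, plus strand: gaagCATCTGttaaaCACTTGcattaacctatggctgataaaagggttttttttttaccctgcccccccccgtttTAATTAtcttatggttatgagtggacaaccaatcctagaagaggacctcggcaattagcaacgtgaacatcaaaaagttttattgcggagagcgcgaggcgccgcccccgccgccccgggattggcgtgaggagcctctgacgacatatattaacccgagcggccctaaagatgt
*Ednra*, chr8:77724453-77724702, minus strand: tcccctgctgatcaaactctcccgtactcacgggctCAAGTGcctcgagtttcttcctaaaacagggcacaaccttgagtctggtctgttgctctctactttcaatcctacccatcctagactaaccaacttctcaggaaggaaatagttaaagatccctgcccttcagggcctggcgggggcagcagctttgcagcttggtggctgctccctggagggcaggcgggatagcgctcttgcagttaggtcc
*Dlx2*, chr2:71546755-71547004, minus strand: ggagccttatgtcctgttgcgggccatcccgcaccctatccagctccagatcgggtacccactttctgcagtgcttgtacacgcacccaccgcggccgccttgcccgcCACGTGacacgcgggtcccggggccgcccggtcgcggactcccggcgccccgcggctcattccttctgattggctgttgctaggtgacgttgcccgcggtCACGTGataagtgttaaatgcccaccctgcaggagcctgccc
The *Hand2* window held 2 E-boxes and 1 TAATTA. The *Dlx2* window held 2 E-boxes and no TAATTA, and the *Ednra* window 1 E-box. The windows of *Dlx1* and *Edn1*, which are not shown, held neither motif. Of 32851 promoter windows of the same length, 66.2% held an E-box and 4.84% held TAATTA, so an E-box is common and TAATTA is not. These matches describe the sequence and were not tested for binding.

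The value for each gene was FPKM, the fragments mapped to a gene scaled by its length and by all mapped fragments, so levels can be compared between genes. Summed FPKM ran from 528123 to 590174 over the samples. The paper gives an approximate read number per sample, but how many reads underlie a single gene's value is not known. Replicate 1 of either genotype lay away from the remaining samples. The first principal component of the 10061 genes tested carried 54.7% of the variance and placed them at -19.1 and -17.0, against 7.55 to 11.0 for the other 4. The Y-linked genes *Uty*, *Kdm5d*, *Eif2s3y* and *Ddx3y* summed to FPKM of 57.7 and 55.5 in mutant replicates 1 and 2 and to at most 0.217 in the other samples. By these values, male tissue was seen in mutant samples only, so sex was not balanced between the groups. The 3 samples per group are separate biological replicates per the labels, which do not say how many embryos each held. *Rbfox2*, the deleted gene, ran from 58.4 to 65.0 FPKM in controls and from 34.3 to 38.1 in mutants, without overlap (two-sided exact permutation p = 0.10, the lowest value 3 against 3 can give). All 8 markers of cranial mesenchyme, among them *Prrx1*, *Twist1* and *Msx1*, were detected, and their FPKM summed to 415 to 470 in controls and 374 to 464 in mutants. Ventral forebrain markers were also present, and all 12 had a mean FPKM over 1. In such bulk tissue, fewer cells of a type and less RNA per cell cannot be told apart.

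In the 6 samples the 10 genes spanned a wide range of levels. *Dlx1* was the highest in every sample, with a mean FPKM of 74.6 over the 6 samples, and *Edn1* had the lowest mean, 0.748. Between them, in order of the mean FPKM, stood *Dlx5* at 30.1, *Dlx2* at 29.9, *Dlx6* at 24.0, *Ednra* at 19.6, *Hand2* at 13.5, *Dlx3* at 6.32, *Hand1* at 1.67 and *Dlx4* at 1.09. The ranges over the 6 samples did not overlap between *Dlx1* and *Dlx5*, *Ednra* and *Hand2*, *Hand2* and *Dlx3*, or *Dlx3* and *Hand1*. They overlapped for the other neighbours in this order, and *Dlx5* exceeded *Dlx2* in 3 of 6 samples. The receptor was thus far above its ligand, with a ratio of *Ednra* to *Edn1* FPKM of 17.9 to 31.9 per sample.

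**Figure D1:**
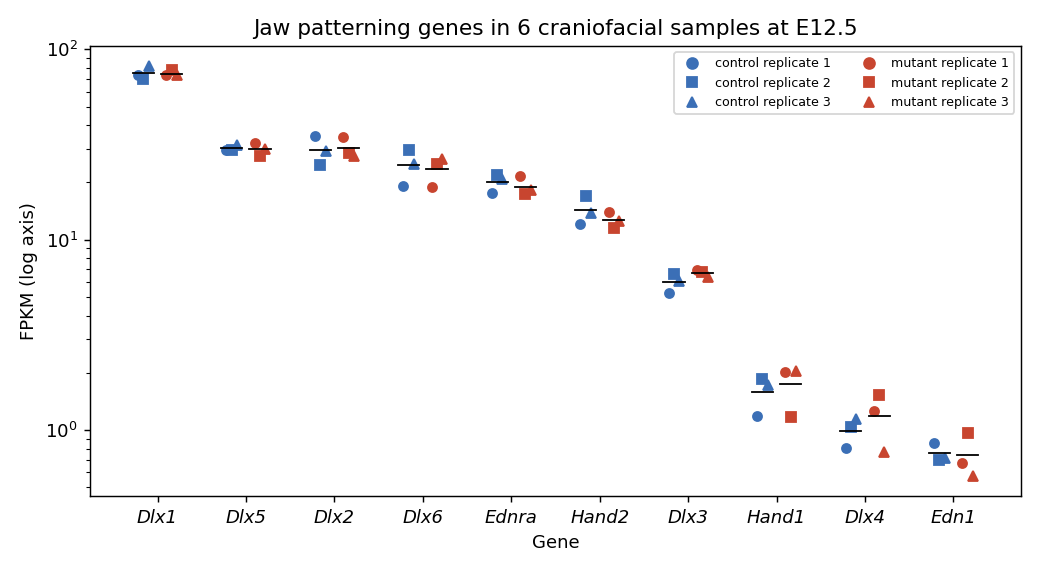
FPKM (log axis) of the 10 genes in each sample, ordered by their mean; blue marks are controls, red marks mutants, the symbol gives the replicate number and the short line the group mean. Control and mutant values overlap in each of the 10 genes, while the genes differ from 0.748 (*Edn1*) to 74.6 (*Dlx1*) in mean FPKM.

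No difference between *Rbfox2* mutant and control was detected in any of the 10 genes, and in each the mutant and control values overlapped. Of the 10061 genes tested with limma on log2(FPKM + 1), 5.0% had groups that did not overlap. The 7 genes of the jaw set that passed the filter, which asks for FPKM above 5 throughout at least 1 of the groups, were *Dlx1*, *Dlx2*, *Dlx3*, *Dlx5*, *Dlx6*, *Hand2* and *Ednra*. None of the 7 had an unadjusted p under 0.05, against 1.66% (167) of all genes tested. None had an adjusted p under 0.05 in limma, as was the case for 0% of all genes tested, where the smallest adjusted p was 0.138. The median log2 fold change of the 7 was -0.016 and its median size 0.054, and over all genes tested these were 0.0057 and 0.054. The other 3 genes, *Dlx4*, *Hand1* and *Edn1*, were under the filter and were tested in a fit without it, in which 2.87% of 23063 genes had an unadjusted p under 0.05 and none of these 3 did. In exact permutation tests of FPKM the p-values of the 10 genes ran from 0.20 for *Dlx3* to 1 for *Dlx2* and *Dlx5*.

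**Figure D2:**
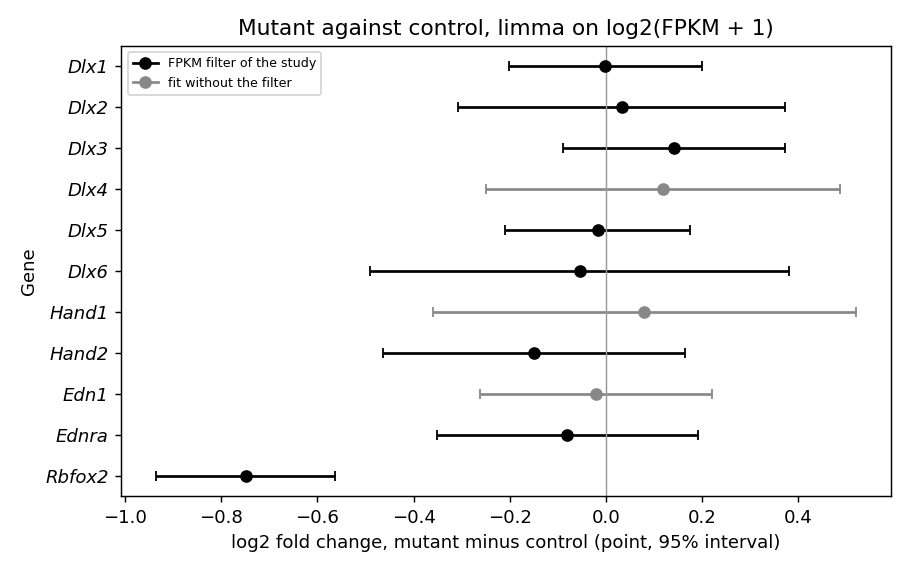
Log2 fold change of mutant over control on the log2(FPKM + 1) scale (points) with the 95% confidence interval from limma (bars) for the 10 genes and *Rbfox2*; grey points come from the fit without the FPKM filter. The intervals of the 10 genes include 0, and that of *Rbfox2*, from -0.94 to -0.56, does not.

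The ligand gene *Edn1* was expressed at a low level. Its FPKM was 0.858, 0.697 and 0.715 in control replicates 1, 2 and 3 and 0.674, 0.970 and 0.576 in mutant replicates 1, 2 and 3. The mutant samples held both the highest and the lowest value. Controls averaged 0.757 ± 0.088 (SD, n = 3) and mutants 0.740 ± 0.205 (SD, n = 3), and the log2 fold change was -0.019 (95% interval -0.26 to 0.22, fit without the filter). At this level the scale understates a change. *Edn1* is also made by endothelial and epithelial cells, and the FPKM of 5 endothelial markers summed to 77.8 to 91.2 in controls and 81.0 to 89.0 in mutants. That of 7 epithelial markers, including *Krt5*, *Krt14* and *Epcam*, summed to 121 to 211 in controls and 121 to 168 in mutants.

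The receptor gene *Ednra* had FPKM of 17.7, 21.9 and 20.8 in control replicates 1, 2 and 3 and 21.5, 17.3 and 18.1 in mutant replicates 1, 2 and 3. Mutant replicate 1 was thus above control replicate 1, and mutant replicates 2 and 3 were below control replicates 2 and 3. The log2 fold change was -0.080 (standard error 0.12, 95% interval -0.35 to 0.19, adjusted p = 1.0 from limma). The difference was 0.27 for the replicate 1 samples and -0.26 in replicates 2 and 3, where a fit on these 4 samples gave an unadjusted p of 0.0106 and an adjusted p of 0.400 in limma.

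*Hand2*, which encodes the bHLH factor downstream of the endothelin signal, followed the same course. Its FPKM was 12.1, 17.0 and 13.8 in control replicates 1, 2 and 3 and 14.0, 11.5 and 12.6 in mutant replicates 1, 2 and 3. No sample exceeded control replicate 2, and the groups overlapped. Controls averaged 14.3 ± 2.50 (SD, n = 3) and mutants 12.7 ± 1.27 (SD, n = 3). On the log2 scale the fold change was -0.15 (standard error 0.13, 95% interval -0.46 to 0.16, adjusted p = 1.0 from limma), and -0.026 when control replicate 2 was left out. For the replicate 1 samples the difference was 0.20, and in replicates 2 and 3 it was -0.32, with an unadjusted p of 0.0255 and an adjusted p of 0.420 in limma. In the fit on replicates 2 and 3, *Hand2* and *Ednra* were the 2 of the 7 genes with an unadjusted p under 0.05, and 11.0% of 10258 genes tested had one.

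*Hand1*, a bHLH factor of the most distal arch mesenchyme, stood at 1.18, 1.85 and 1.73 FPKM in control replicates 1, 2 and 3 and at 2.01, 1.17 and 2.06 in mutant replicates 1, 2 and 3. The values of the groups overlapped, and the log2 fold change was 0.080 (95% interval -0.36 to 0.52, fit without the filter). The ratio of *Hand2* to *Hand1* FPKM lay between 6.13 and 10.3 in the 6 samples. On the log2 scale its mutant minus control difference was -0.28 (exact permutation test, two-sided, p = 0.30). With 3 against 3 this test cannot give a p under 0.10. Heart muscle markers were near 0, with an FPKM summed over *Nkx2-5*, *Myh6*, *Myl7* and *Nppa* of 1.41 to 1.91 in controls and 0.588 to 0.854 in mutants. Most of this was *Nkx2-5*, a homeobox gene named here after its values were seen, whose control samples stood at 1.56, 1.34 and 1.07 FPKM and whose mutant samples stood at 0.509, 0.434 and 0.451. Its groups did not overlap (log2 fold change -0.66, unadjusted p = 0.000369 and adjusted p = 1.0 from limma without the filter). The part of heart tissue in the *Hand2* values was not tested.

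*Dlx5* and *Dlx6*, the lower jaw pair, differed from each other in how they varied. *Dlx5* was among the steadiest of the 10 genes, with FPKM of 29.7, 29.7 and 31.3 in control replicates 1, 2 and 3 and 32.3, 27.6 and 29.9 in mutant replicates 1, 2 and 3. Its log2 fold change was -0.016 (standard error 0.082, 95% interval -0.21 to 0.18), so that the interval runs from 0.865 to 1.13 as a ratio of mutant to control. The control samples of *Dlx6*, in the same order, read 19.1, 29.7 and 25.0 FPKM, and its mutant samples 18.8, 25.1 and 26.6. Both first replicates were below the other 4 samples, and the log2 fold change was -0.054 (standard error 0.18, 95% interval -0.49 to 0.38). The ratio of *Dlx5* to *Dlx6* FPKM was accordingly highest in the first replicates, at 1.56 and 1.71, against at most 1.25 in the other samples.

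*Dlx1* and *Dlx2*, the pair expressed in both jaws, showed the converse pattern in the second gene. *Dlx1* had FPKM of 73.2, 69.6 and 81.3 in control replicates 1, 2 and 3 and 72.9, 77.8 and 72.9 in mutant replicates 1, 2 and 3. Controls averaged 74.7 ± 5.99 (SD, n = 3) and mutants 74.5 ± 2.82 (SD, n = 3), and the log2 fold change was -0.0010 (standard error 0.085, 95% interval -0.20 to 0.20), or 0.869 to 1.15 as a ratio. The control samples of *Dlx2* read 34.9, 24.6 and 29.4 FPKM and its mutant samples 34.6, 28.6 and 27.4, and here both first replicates were above the other 4 samples. Its log2 fold change was 0.033 (standard error 0.14, 95% interval -0.31 to 0.37).

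*Dlx2* and *Dlx6* were the 2 of the 7 genes whose first replicates did not overlap with replicates 2 and 3, which was so for 53.1% of all genes tested. Samples numbered 1 exceeded the others by 0.33 on the log2(FPKM + 1) scale in *Dlx2* and were below them by -0.46 in *Dlx6*, and for all genes tested the median size of this shift was 0.16. Most ventral forebrain markers moved with *Dlx2*, while *Dlx1* and *Dlx5*, also expressed there, were shifted by only -0.042 and 0.065. The first replicates lay apart from the others in 8 of the 12 markers, with shifts of 0.87 for *Nkx2-1* and 0.53 for *Six3*. Among the 6 markers that passed the filter these were 4, beside the 53.1% of all genes tested. The 12 summed to FPKM of 148 and 133 in the first replicates and 92.1 to 117 in the other samples. *Lhx6*, 1 of the 8 and also expressed by the jaw mesenchyme, was shifted the other way, by -0.22. The part of forebrain tissue in the *Dlx* values was not tested.

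*Dlx3* and *Dlx4* are expressed in the most ventral arch mesenchyme and in surface epithelium. *Dlx3* had FPKM of 5.25, 6.62 and 6.04 in control replicates 1, 2 and 3 and 6.91, 6.75 and 6.36 in mutant replicates 1, 2 and 3. Its mutant value was the higher in each replicate number, by 0.34, 0.024 and 0.064 on the log2(FPKM + 1) scale. It was the only one of the 10 genes with the same direction in all 3 numbers. That direction depends on matching samples by number, since mutant replicate 3, at 6.36, was below control replicate 2, at 6.62. The log2 fold change of 0.14 (standard error 0.098, 95% interval -0.088 to 0.37, adjusted p = 1.0 from limma) was within the spread between replicates, and it was 0.066 without control replicate 1. The control samples of *Dlx4* read 0.808, 1.04 and 1.14 FPKM and its mutant samples 1.27, 1.53 and 0.765, and the log2 fold change was 0.12 (95% interval -0.25 to 0.49, fit without the filter). Mutant replicate 3 held the lowest value of *Dlx4* and mutant replicate 2 the highest.

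The 6 *Dlx* genes together gave a nearly constant amount of transcript. Controls averaged a summed FPKM of 166 ± 6.98 (SD, n = 3) and mutants one of 166 ± 1.88 (SD, n = 3) (exact permutation test, two-sided, p = 1). *Dlx1* made up 43.2% to 46.7% of this sum, *Dlx2* 15.3% to 21.4%, *Dlx5* 16.5% to 19.4% and *Dlx6* 11.3% to 18.4%. *Dlx3* contributed 3.22% to 4.14% and *Dlx4* at most 0.912%.

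RNAs on the opposite strand run through these loci. *Dlx1as* (ENSMUSG00000084946) covers all 5869 bases of *Dlx1*, and *Dlx6os1* (ENSMUSG00000090063) all 5235 bases of *Dlx6*. The libraries were stranded, but the strand setting of the counting is not given in the sources used here, so reads of such partners may not be fully separated. *Dlx1as* stood at 10.3, 7.14 and 9.10 FPKM in control replicates 1, 2 and 3 and at 10.5, 7.43 and 7.51 in mutant replicates 1, 2 and 3, and its first replicates were the highest, as those of *Dlx2* were. The ratio of *Dlx1as* to *Dlx2* lay between 0.259 and 0.310 in the 6 samples, and that of *Dlx1as* to *Dlx1* between 0.0955 and 0.144. *Dlx6os1* stood at 11.9, 14.6 and 16.1 FPKM in the control replicates and at 13.1, 13.4 and 14.8 in the mutant replicates, and its first replicates were the lowest, as those of *Dlx6* were. The log2 fold changes of *Dlx1as* and *Dlx6os1* were -0.055 and -0.034 (adjusted p = 1.0 each from limma). *Dlx6os2* (ENSMUSG00000094868), inside *Dlx6*, was at 0.0999 to 0.210 FPKM. *Dlx4os* (ENSMUSG00000086552) overlaps 1212 bases of *Dlx4* and was the exception among these RNAs, at 1.21, 1.56 and 1.44 FPKM in the control replicates and 1.75, 1.80 and 2.04 in the mutant replicates. The groups did not overlap (two-sided exact permutation p = 0.10, the lowest the design allows). The log2 fold change was 0.26 (95% interval 0.012 to 0.50, unadjusted p = 0.0424 and adjusted p = 1.0 from limma without the filter). In that fit 2.87% of 23063 genes had an unadjusted p under 0.05, and 5.0% of the 10061 genes over the filter had groups that did not overlap.

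**Figure D3:**
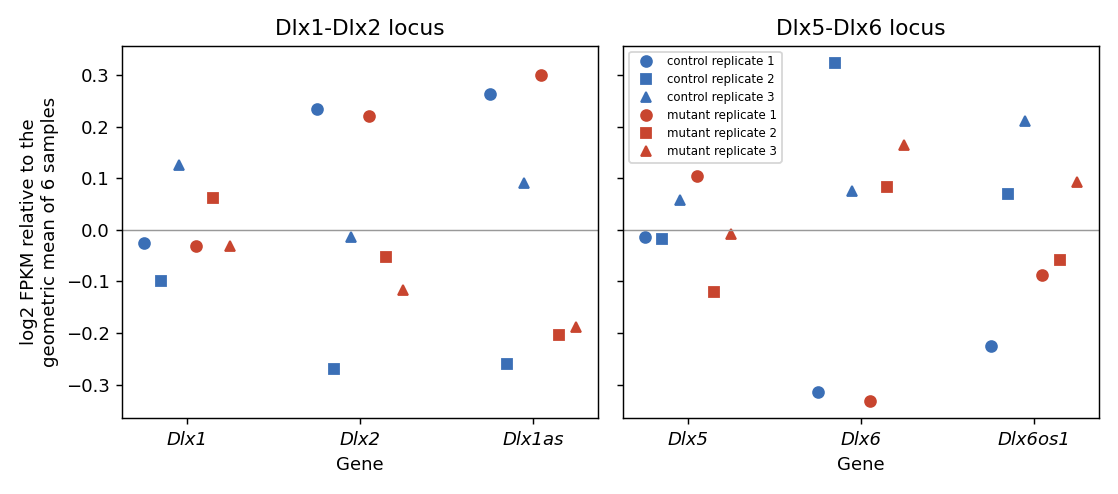
Log2 FPKM of *Dlx1*, *Dlx2* and *Dlx1as* (left) and *Dlx5*, *Dlx6* and *Dlx6os1* (right) in each sample relative to the geometric mean of the 6 samples; colour gives the group and the symbol the replicate number. The first replicates (circles) of both groups are above the other samples for *Dlx2* and *Dlx1as* and below them for *Dlx6*, whereas controls and mutants overlap in each gene.

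Other genes of jaw patterning, in 4 lists of 27 genes, were read from the same fit. Of these, 25 passed the filter, and none had an unadjusted p under 0.05 in limma. In the endothelin pathway, 3 of 9 tested genes had a log2 fold change above 0 and 6 below, with a median of -0.0061. The smallest p-values were those of *Mef2c*, a transcription factor gene induced by endothelin signalling, whose log2 fold change was -0.26 (standard error 0.16), and *Furin*, a proprotein convertase that acts on the endothelin precursor, at -0.076 (standard error 0.089). *Ece1*, the endothelin-converting enzyme gene, varied most, at 60.9, 61.0 and 77.6 FPKM in the control replicates and 41.0, 50.8 and 125 in the mutant replicates. Mutant replicate 3 set this spread, and the log2 fold change was -0.048 (standard error 0.38).

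Among the lower jaw genes, *Barx1* and *Pitx1*, homeobox genes of the jaw mesenchyme and oral region, had log2 fold changes of -0.15 (standard error 0.095) and -0.18 (standard error 0.13), and 3 of 4 tested genes were below 0. Among the upper jaw genes 5 of 6 were above 0, with a median of 0.087, against 0.0057 over all genes tested. The first replicates lay apart from the others in 4 of these 6, and in 53.1% of all genes tested. Whether the lists differed in direction was not tested. Those with the smallest p were *Jag1*, a Notch ligand gene, at -0.13 (standard error 0.10), and *Nr2f1*, a nuclear receptor gene of the maxillary region, at 0.30 (standard error 0.23). The bHLH partners, the E proteins and Id factors that pair with or sequester Hand proteins, lay between -0.080 and 0.057, with *Tcf4* at -0.080 (standard error 0.11) and *Id1* at 0.057 (standard error 0.079) having the smallest p.

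With the replicate number as a block, 6.0% of all genes tested had an unadjusted p under 0.05, and none of the 7 jaw genes and none of the 25 others did. In the fit on replicates 2 and 3, 6 of the 25 had one. *Mef2c*, *Barx1*, *Pitx1* and *Jag1* were lower in the mutants, by -0.42, -0.24, -0.24 and -0.23, and *Nr2f1* and *Nr2f2* were higher, by 0.47 and 0.38 (adjusted p from 0.375 to 0.430 in limma). The share, 6 of 25, compares with 11.0% of all genes tested in that fit. Some markers of mesenchyme and epithelium were also lower in the mutants of replicates 2 and 3. There, 3 of 8 cranial mesenchyme markers, *Prrx1*, *Twist2* and *Pdgfra*, had an unadjusted p under 0.05 with log2 fold changes of -0.26, -0.31 and -0.28. The other 5 did not, and lay between -0.23 for *Alx4* and 0.00080 for *Msx2*. Of the 7 epithelial markers 5 had an unadjusted p under 0.05, with *Krt5* at -0.60 and *Epcam* at -0.24. Between the first replicates, the mesenchyme markers ranged from -0.20 for *Msx2* to 0.35 for *Pdgfra*, with *Msx1* at 0.00096, *Prrx1* at 0.24 and *Twist2* at 0.23, beside 0.20 for *Hand2* and 0.27 for *Ednra*. The epithelial markers ranged from -0.16 for *Krt14* to 0.18 for *Krt18*. *Krt5* and *Krt14*, keratin genes of the basal epithelium, were lower in the mutant in all 3 numbers. Limma with the replicate block gave them unadjusted p = 0.0183 and 0.00941 and adjusted p = 0.81 and 0.77. *Trp63* was also below 0 in all 3 numbers, but by only -0.0012 in replicate 1 (unadjusted p = 0.075 from the same limma fit). None of the other epithelial markers was lower in all 3. Among them *Cdh1* stood at 0.0013 in replicate 1 and at -0.37 and -0.20 in replicates 2 and 3. The part of tissue composition in the values of *Hand2* and *Ednra* was not tested.

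**Figure D4:**
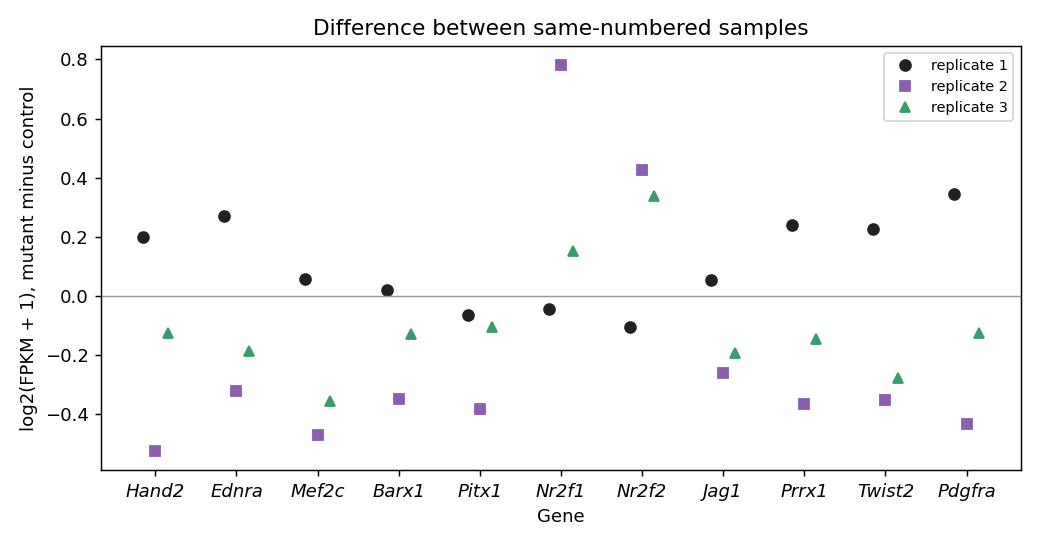
Difference in log2(FPKM + 1), mutant minus control, between samples of the same replicate number, for the genes of the jaw and cranial mesenchyme lists with an unadjusted p under 0.05 in replicates 2 and 3, so the direction of the squares and triangles was used to choose them. *Hand2* and *Ednra* lie at 0.20 and 0.27 in replicate 1 and below 0 in replicates 2 and 3, and *Prrx1*, *Twist2* and *Pdgfra* do the same.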

How the data were processed

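RNA-Seq was performed on poly(A)+ RNA from craniofacial tissue in 3 control and 3 *Rbfox2* mutant samples. The authors aligned reads to GRCm38 with STAR and deposited FPKM values for 38553 genes. The step and annotation release behind the gene table are not given in the sources used here. Per-sample tables and the table of all samples held the same values (0 differences). Among low FPKM values, between 16.9% and 31.2% of genes stood at 1 ratio in pairs among replicates 2 and 3 and at most 7.29% in pairs with a first replicate, so the FPKM could not be turned back into whole reads for a count test.

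The 10061 genes whose FPKM exceeded 5 throughout at least 1 group were tested on log2(FPKM + 1). The test was that of limma (version 3.58.1, run under R 4.3.3), with the variance trend and Benjamini-Hochberg adjustment over all genes. Genes under the filter were read from a fit of the 23063 genes above 0 in any sample. The fit was tested on simulated data. Positions are from GENCODE M21, and promoter windows from RefSeq held 5 of the 10 genes.

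The deviations of same-numbered samples from their group means correlated across genes at 0.64, 0.26 and 0.51, so the replicate number was also fitted as a block. Control 3 with mutant 2 (0.40) and control 2 with mutant 3 (0.23) correlated as well, so numbers 2 and 3 were not set apart from each other, and pairs of a first replicate with another number ran from -0.68 to -0.37. Named were all 10 genes and, of each list, the 2 with the smallest p and those with an unadjusted p under 0.05. The rule that would name genes of similar pattern, for members spanning over 1 on the log2 scale, found none. *Hand2os1* is not analysed here. The members and lists were chosen with earlier results of these data known.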

Additional observations from a re-analysis of the deposited data

How the results depend on the processing

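The fit was repeated with 15 other settings and with 1 more chosen after seeing the data (the first replicates as a term). By limma, none of the jaw genes reached an adjusted p under 0.05 in any. The count with an unadjusted p under 0.05 was 0 in each of them, leave-one-out fits included (0 to 0), except for 2 in replicates 2 and 3 only. *Dlx3*, *Hand2* and *Ednra* kept their direction in all 16. With the replicate block no call on a jaw gene changed. The cause of the following changes was not tested. In replicates 2 and 3 only, the log2 fold changes of *Dlx1*, *Hand1* and *Edn1* turned to 0.0021, -0.11 and 0.047. With the Y-linked level as a covariate, those of *Dlx2*, *Dlx4* and *Dlx6* turned to -0.097, -0.17 and 0.13. With 1 sample left out in turn, log2 fold changes crossed 0 in *Dlx1* (-0.050 to 0.061), *Dlx2* (-0.089 to 0.15), *Dlx5* (-0.070 to 0.037), *Dlx6* (-0.22 to 0.091), *Hand1* (-0.039 to 0.24) and *Edn1* (-0.11 to 0.049).

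Over all genes, 167 had an unadjusted p under 0.05. The count was 304 with an FPKM filter of 1, 663 with no filter, 604 with the replicate block, 1130 in replicates 2 and 3 only and 611 with the first replicates as a term, and 78 (without control replicate 2) to 690 (without control replicate 1) with 1 sample left out. Genes with an adjusted p under 0.05 numbered 0, but 4 in replicates 2 and 3 only, 3 with the first replicates as a term and up to 5 with 1 sample left out (0 to 5, the highest without mutant replicate 3). In the 4 other lists the unadjusted count was 0, but 2 with the Y-linked covariate, 6 in replicates 2 and 3 only, 1 with the first replicates as a term and 0 to 4 with 1 sample left out, the highest without control replicate 1. *Rbfox2* passed the adjusted threshold in replicates 2 and 3 only (-0.82, adjusted p = 0.0407) and with the first replicates as a term (-0.75, adjusted p = 0.0296). Fragment counts per gene are not given, so counting error in *Edn1*, *Dlx4* and *Hand1* was not calculated.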
